A study of Mus musculus with 42 samples.

Results

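The samples compared here were 2 arrays of mouse embryonic stem cells (ESCs) at passage 15, called P15, and 2 arrays of outgrowths of the inner cell mass (ICM) on day 5 after plating, called IO-5. They were chosen by their sample titles and make up 4 of the 42 arrays of the series. Both groups were labelled as hybrids (B6 x C3H) and grew on gelatin in the serum-free medium N2B27 with R2i, a pair of inhibitors. PD0325901 (PD, 1 µM) blocks the kinase MEK and SB431542 (SB, 10 µM) blocks signalling from type I receptors of TGF-β, and leukaemia inhibitory factor (LIF) was added at 1000 U/mL. Each IO-5 array held RNA of 30 to 40 outgrowths that were picked and pooled, from blastocyst ICMs freed of trophectoderm by immunosurgery, a lysis of the outer cells with antibody and complement. The sources used here do not say whether the 2 P15 arrays came from 1 ESC line or 2, or of which sex. The comparison asks how an established line differs from the outgrowth that such lines start from, in the same medium.

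The ICM of the blastocyst holds the epiblast, the source of the embryo and of ESCs, and the primitive endoderm, which forms yolk sac and lays down a basement membrane of laminin and type IV collagen. FGF signalling through MEK and ERK directs ICM cells to primitive endoderm, through the transcription factor Gata6. The outer trophectoderm, the precursor of the placenta, is marked by Cdx2 and simple epithelial keratins. ESCs keep the epiblast state through Oct4 (gene symbol Pou5f1), Sox2, Nanog and a set of further factors such as Esrrb, Klf4 and Zfp42 (also called Rex1), and an outgrowth may hold cells of every kind named here. In such bulk samples, fewer cells of a type and less RNA per cell cannot be told apart.

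Levels are given as log2 intensity, after background correction and quantile normalization over the 22 hybrid arrays of the same array type. A probe was detected on an array when its detection p, a comparison with negative control beads, was under 0.05. A difference is P15 minus IO-5, with its standard error (SE) from a linear model over those 22 arrays, and a gene was called when it changed 2-fold or more with an adjusted p no higher than 0.01. Where no array of one group detected a gene, the fold is a lower bound, computed against the lowest signal detected on those arrays or the measured value if higher.

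The 4 arrays differed in brightness and in how well replicates matched. The P15 arrays detected 41.0% and 39.5% of the probes, and the IO-5 arrays 44.7% for replicate 1 and 37.9% for replicate 2. The median raw intensity was 119 and 109 in P15, against 117 and 89.0 in IO-5. Over the probes kept, the P15 arrays correlated with an r of 0.995 and the IO-5 arrays with 0.965, and 4 genes in P15 and 910 in IO-5 lay over 1 log2 apart between replicates. IO-5 replicate 1 was most like an IO-3 array and IO-5 replicate 2 most like a P2 array, by correlation over the kept probes. IO-5 replicate 2 therefore stood apart in brightness and in likeness, and results are given with and without it.

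Of 10013 genes tested, 1200 were called between P15 and IO-5, which is 12% of the genes. Falls outnumbered rises, though not with cyclic loess or with the arrays scaled to one median. There were 700 genes lower in P15 (6.99% of the genes) and 500 higher (4.99%), and 44 fell at least 8-fold while 6 rose as much. Of the genes called lower, 115 were not detected on either P15 array, and of those called higher, 35 were not detected on either IO-5 array. The median over all genes tested was -0.04. In all 1200 genes the P15 arrays did not overlap the IO-5 arrays, which also held for 67% of all genes tested. With the arrays scaled to one median in place of quantile normalization, 155 were higher and 108 lower and the median of all genes was 0.10, and with cyclic loess 1197 were higher and 1072 lower. Of the 150 called genes among the 164 picked by the naming rule, 46 kept their call with one median and none changed sign. Among those kept were Lama1, Gata6, Cdx2, Krt8 and Aim2. In a fit of the 4 arrays alone 71 kept their call. That fit leaves each difference as it is and changes only its SE, so no sign could change there.

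Leaving out 1 array of either group moved these counts by more than 1.5 times, except for IO-5 replicate 1. Without IO-5 replicate 2, 118 genes were higher and 261 lower in P15, and without IO-5 replicate 1, 580 and 682. Without P15 replicate 1 there were 180 higher and 269 lower, and without P15 replicate 2, 103 and 215. No sign could change in these 4 fits, since in all 1200 genes the P15 arrays did not overlap the IO-5 arrays. Among the genes called higher in P15, 408 of 500 (81.6%) were lower on IO-5 replicate 2 than on replicate 1, against 51.0% of all genes, and among those called lower it was 219 of 700 (31.3%). The part of this array in each rise or fall was not tested beyond these fits. Where 1 array was left in a group, it was assumed to vary as the other groups do.

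**Figure D1:**
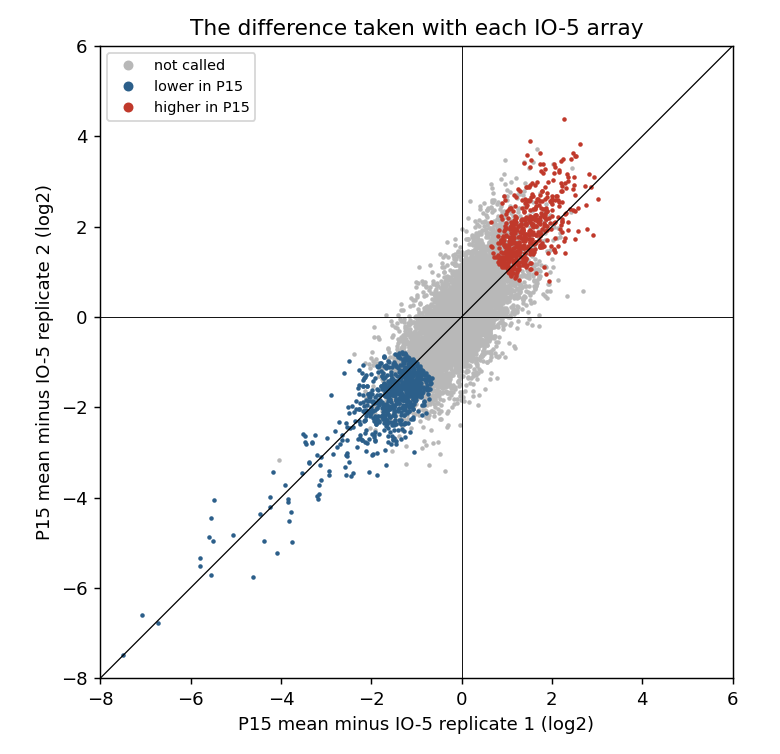
Each point is a gene, with the mean of the P15 arrays less IO-5 replicate 1 (x axis) and less IO-5 replicate 2 (y axis), both in log2. Points on the diagonal gave the same difference with either array, and most genes called higher in P15 (red) lie above it.

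**Figure D2:**
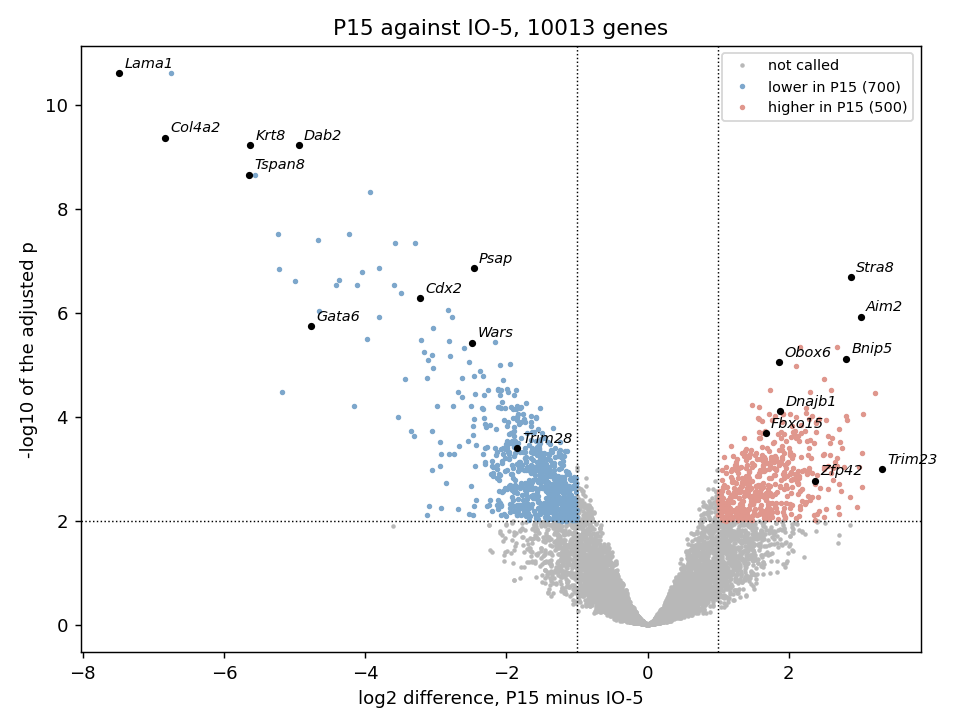
Log2 difference, P15 minus IO-5 (x axis), against the -log10 of the adjusted p (y axis), for 10013 genes. Dotted lines mark the 2-fold change and the adjusted p of 0.01, with 700 genes lower (blue) and 500 higher (red) in P15 and some named genes in black.

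The deepest falls were in the basement membrane. Of 15 genes of this list that were tested, 10 were lower in P15, none was higher and all 15 had a difference below 0, with a median of -2.69. Lama1, a laminin chain of the earliest basement membrane of the embryo, had 5.15 and 5.01 in P15, against 12.58 and 12.55 in IO-5, with the largest fall of all genes called, -7.49 ± 0.24 (adjusted p = 2.50e-11). It was detected on all 4 arrays, and its IO-5 values were nearly equal. Col4a2, a type IV collagen chain, had 4.65 and 4.66 in P15, against 11.73 and 11.26 in IO-5. It was not detected in P15 and was at least 103-fold lower there (log2 difference -6.84 ± 0.28 (adjusted p = 4.33e-10)). Its partner chain Col4a1 had 6.78 and 6.91 in P15, against 12.43 and 11.71 in IO-5, a difference of -5.22 ± 0.35 (adjusted p = 1.45e-07), and stayed detected on both P15 arrays. The laminin chain Lamb1 had a difference of -4.16, and the list had 8 and 8 genes lower without P15 replicate 1 or 2, and 10 and 7 without IO-5 replicate 1 or 2.

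Col4a1 and Col4a2 are neighbours that point away from each other, and the start regions that RefSeq gives for both overlap. The window from 250 bases before to 50 after the annotated start of Col4a2 (GRCm38.p6, chr8:11312555-11312854, plus strand) is shown because both collagen chains fell together, and capitals mark the 78 bases, chr8:11312777-11312854, that also lie in the window of Col4a1 on the minus strand.
Col4a2: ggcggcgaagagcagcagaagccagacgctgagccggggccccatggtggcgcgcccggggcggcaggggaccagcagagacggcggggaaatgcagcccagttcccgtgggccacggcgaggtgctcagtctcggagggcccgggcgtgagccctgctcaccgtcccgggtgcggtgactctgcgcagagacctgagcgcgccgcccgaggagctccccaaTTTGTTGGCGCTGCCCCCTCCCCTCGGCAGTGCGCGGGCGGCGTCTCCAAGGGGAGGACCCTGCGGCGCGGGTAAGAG
This window holds 33 CpG dinucleotides in 300 bases, and the data do not say whether the shared region bears on either gene.

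Markers of primitive endoderm fell with the basement membrane. On the list of primitive and visceral endoderm, 10 of 20 genes tested were lower in P15 and none was higher, with a median of -1.20. Gata6, the factor that sets this lineage, had 4.52 and 4.29 in P15, against 9.89 and 8.46 in IO-5, and was at least 20.6-fold lower in P15 (-4.77 ± 0.41, adjusted p = 1.82e-06). Pdgfra, a growth factor receptor used to recognise primitive endoderm, had 4.47 and 4.46 in P15, against 10.01 and 8.91 in IO-5, and was at least 25.1-fold lower. For Dab2, an endocytic adaptor of this lineage, the values were 4.43 and 4.79 in P15, against 9.67 and 9.44 in IO-5, at least 26.8-fold lower in P15. Sox17, a factor that follows Gata6, had 4.38 and 4.53 in P15, against 8.69 and 8.66 in IO-5, and was at least 14.6-fold lower. All 4 of these genes were below detection on both P15 arrays and detected on both IO-5 arrays. Gata4 and Hnf4a, further factors of this tissue, did not pass the test, with differences of 0.05 and 0.06, and Gata4 was not detected on any of the 4 arrays. The list had 9 and 9 genes lower without P15 replicate 1 or 2, and 10 and 8 without IO-5 replicate 1 or 2.

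Dab2 has 2 annotated starts in RefSeq, and the window of one (GRCm38.p6, chr15:6299539-6299838, plus strand) is shown because it holds the letters AGATAA or TGATAA, which GATA factors bind. Both strands were searched, and capitals mark the 2 matches.
Dab2: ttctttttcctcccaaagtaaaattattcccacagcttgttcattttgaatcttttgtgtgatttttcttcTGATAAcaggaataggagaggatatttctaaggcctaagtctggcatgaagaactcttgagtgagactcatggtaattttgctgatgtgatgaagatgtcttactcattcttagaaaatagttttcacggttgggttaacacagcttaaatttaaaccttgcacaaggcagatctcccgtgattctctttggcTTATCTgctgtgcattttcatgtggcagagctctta
Such a match was in the windows of 77 of 560 genes called lower (13.8%) and 42 of 400 called higher (10.5%) for which RefSeq gave a window, against 13.1% of the genes tested and 21.0% of all 27025 genes of the table. The share among the falls was thus close to that of all genes tested. Over the basement membrane, endoderm and trophectoderm lists together, 4 of the 21 genes called lower that had a window held a match.

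Trophectoderm and epithelial keratin genes fell too. On the trophectoderm list 11 of 22 genes tested were lower, none was higher and 20 lay below 0, with a median of -0.95 and 10 and 10 genes lower without P15 replicate 1 or 2, and 10 and 10 without IO-5 replicate 1 or 2. Krt8, a keratin of simple epithelia, had 5.55 and 4.90 in P15, against 10.78 and 10.93 in IO-5, with a difference of -5.63 ± 0.24 (adjusted p = 6.04e-10). Its partner Krt18 had 4.38 and 4.57 in P15, against 8.24 and 9.45 in IO-5, and was at least 16.4-fold lower. Cdx2, the factor of trophectoderm identity, had 4.36 and 4.39 in P15, against 7.31 and 7.88 in IO-5, and was at least 6.88-fold lower (-3.22 ± 0.25, adjusted p = 5.31e-07). The keratin Krt7 and Gata2, a factor of trophoblast, were lower with differences of -2.81 and -1.79. Gata3, Elf5 and Tead4, factors of the same lineage, did not pass the test, with -0.88, -0.45 and -0.38.

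The 12 largest falls held further genes of the same kind and others with no place on these lists. Tspan8, a membrane protein of epithelia, had 4.32 and 4.37 in P15, against 10.14 and 9.85 in IO-5, at least 36.3-fold lower in P15. Ctsll3, a cathepsin L-like gene, had 4.24 and 4.26 in P15, against 10.03 and 9.60 in IO-5, and was at least 32.1-fold lower. Hs3st1, which adds sulfate to heparan sulfate chains, had 4.50 and 4.37 in P15, against 9.94 and 9.38 in IO-5, and was at least 28.8-fold lower. These genes were detected on both IO-5 arrays and on neither P15 array. Myl3, a myosin light chain, had 4.69 and 4.79 in P15, against 9.36 and 10.49 in IO-5, and Clu, which codes for the secreted chaperone clusterin, had 4.39 and 4.36 in P15, against 8.75 and 9.33 in IO-5. Both were higher on IO-5 replicate 2 than on replicate 1, and both were below detection in P15, at least 34.6-fold and 18.7-fold lower.

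The markers of cell types were read against the labels. Of the 6 markers of pluripotent cells all were detected on all 4 arrays and 1, Zfp42, was called higher. Their mean log2 intensity was 10.27 and 10.36 in P15, against 9.54 and 9.89 in IO-5. The 8 markers of primitive endoderm had means of 4.88 and 4.87 in P15, where 6 were below detection on both arrays, and of 9.21 and 8.67 in IO-5, where 7 were detected on both. For the 7 trophectoderm markers tested the means were 4.66 and 4.51 in P15, with 5 undetected, and 7.22 and 7.43 in IO-5, with 6 detected on both. The P15 label was met by the markers. The IO-5 arrays held RNA of markers of pluripotent cells, primitive endoderm and trophectoderm side by side. Krt8 and Krt18 among them are keratins of simple epithelia, and which cells gave this RNA was not tested. The 3 primed epiblast markers tested had means of 6.26 and 6.39 in P15, against 7.63 and 7.70 in IO-5, and 2 were called lower. The part of other cell types in the remaining differences was not tested. Of 6 fibroblast markers 3 were tested, and of these Thy1 was called lower, Col1a2 and Lum were undetected in P15 and Lum was undetected in IO-5.

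**Figure D3:**
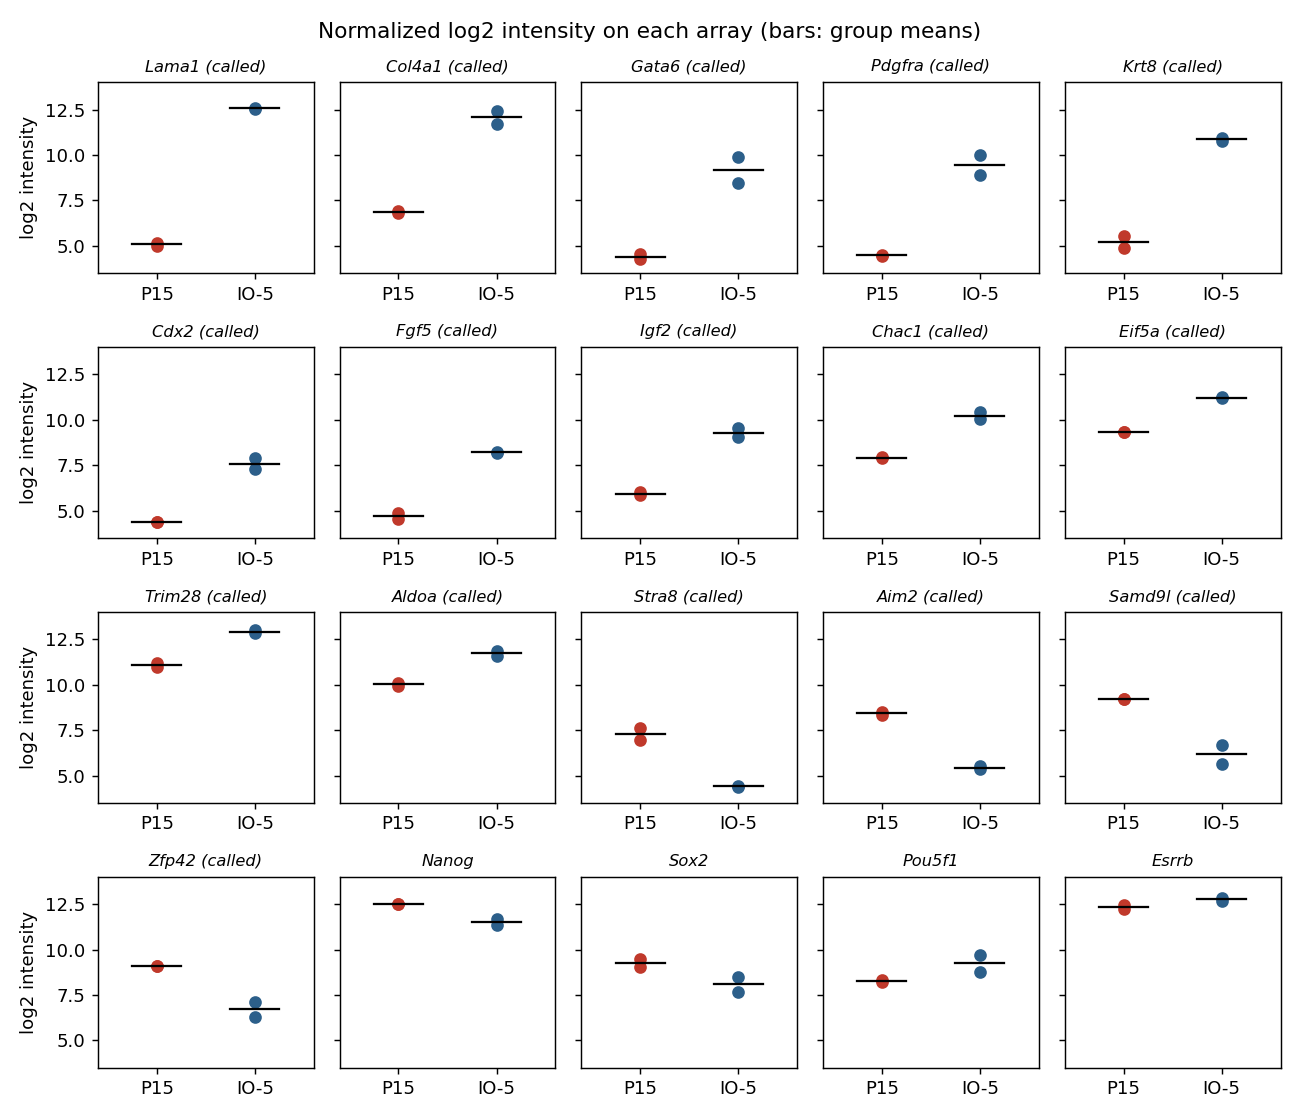
Normalized log2 intensity of 20 genes on the 2 P15 arrays (red, left) and the 2 IO-5 arrays (blue, right), with bars at the group means. Lineage markers such as Lama1 (-7.49) and Gata6 (-4.77) lie far below IO-5 in P15, and Nanog, Sox2 and Pou5f1 differ by about 1 log2.

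The pluripotency genes differed little beside these falls. On the list of core factors, 2 of 11 genes tested were lower in P15 and none was higher, with 1 and 2 genes lower without P15 replicate 1 or 2, and 2 and 1 without IO-5 replicate 1 or 2. Nanog had 12.49 and 12.52 in P15, against 11.66 and 11.34 in IO-5, a difference of 1.00 ± 0.26 (adjusted p = 0.0104), which just missed the limit on p, so it was not called. Sox2 had 9.05 and 9.50 in P15, against 7.68 and 8.48 in IO-5, a difference of 1.19 ± 0.39 (adjusted p = 0.0355), and was not called. Its other probe had a difference of 0.24 (adjusted p = 0.533). Pou5f1 had 8.34 and 8.19 in P15, against 8.76 and 9.72 in IO-5, and was not called either (-0.97 ± 0.45, adjusted p = 0.129). The other probe of Pou5f1 had -1.21 (adjusted p = 0.0551). For Pou5f1 the P15 arrays lay below both IO-5 arrays, while for Sox2 and Nanog they lay above both. Sall4, which acts with Oct4, had a difference of -0.07 ± 0.18 (adjusted p = 0.875). The members called were Trim28, a corepressor that silences retroviral elements, with 11.18 and 10.96 in P15, against 12.99 and 12.85 in IO-5, a difference of -1.85 ± 0.28 (adjusted p = 4.00e-04), and Lin28a, an RNA-binding protein that blocks let-7 maturation, with 8.63 and 9.18 in P15, against 10.21 and 10.86 in IO-5, a difference of -1.63 ± 0.31 (adjusted p = 0.00168), a call that was lost without P15 replicate 1 (adjusted p = 0.0303, log2 -1.35) or IO-5 replicate 2 (adjusted p = 0.0327, log2 -1.30).

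Among 21 naive pluripotency genes tested, 3 were higher and 2 lower in P15, with a median of 0.34. The falls were those of Gbx2 (-1.63 ± 0.33, adjusted p = 0.00250) and Klf5 (-1.35 ± 0.31, adjusted p = 0.00575). Jam2 rose by 1.29 ± 0.24 (adjusted p = 0.00151), beside Zfp42 and Fbxo15. The list had 1 and 1 genes higher without P15 replicate 1 or 2, and 1 and 2 without IO-5 replicate 1 or 2. It had 0 and 0 genes lower without P15 replicate 1 or 2, and 2 and 1 without IO-5 replicate 1 or 2. Zfp42, a marker of the naive state, had 9.10 and 9.08 in P15, against 6.30 and 7.13 in IO-5, with a difference of 2.37 ± 0.45 (adjusted p = 0.00171). Both P15 arrays lay above both IO-5 arrays. This call was lost without P15 replicate 1 (adjusted p = 0.0169, log2 2.36), P15 replicate 2 (adjusted p = 0.0190, log2 2.38) or IO-5 replicate 1 (adjusted p = 0.0173, log2 1.96). Fbxo15, an Oct4 target that is not needed for self-renewal, had 13.61 and 13.35 in P15, against 12.12 and 11.50 in IO-5, and was higher by 1.67 ± 0.24 (adjusted p = 2.06e-04), a call kept without any 1 array. Esrrb, Klf4 and Klf2 did not pass the test, with differences of -0.44, 0.43 and -1.01. Both further probes of Klf4 had the other sign (-0.39 and -0.02), and Klf2 was called lower without IO-5 replicate 1 (adjusted p = 0.00962).

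Genes of the formative and primed epiblast, the stages that follow the naive one, were lower where they changed. Of 11 tested, 3 fell and none rose. Fgf5, the standard marker of primed epiblast, had 4.56 and 4.87 in P15, against 8.26 and 8.17 in IO-5, with a difference of -3.50 ± 0.26 (adjusted p = 4.17e-07), with 1 P15 array detecting it. Pou3f1, a factor of the same stage, had 4.51 and 4.58 in P15, against 6.03 and 7.04 in IO-5, and was at least 3.31-fold lower. Otx2, which guides the exit from the naive state, had a difference of 1.47 with an adjusted p of 0.0117 and was not called. Dnmt3b and Dnmt3l, which take part in new DNA methylation, had -0.56 and -0.53, also not called. A further probe of each had larger falls, -1.12 (adjusted p = 0.0262) and -0.85 (adjusted p = 0.00817), and neither was called. On the list of DNA methylation enzymes Trim28 was the one gene of 13 called, with a list median of -0.53 that turned to 0.08 with the arrays scaled to one median.

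Signalling genes that fell included receptors and feedback regulators. Tgfbr2, the type II receptor for TGF-β, had 4.31 and 4.47 in P15, against 7.89 and 6.99 in IO-5, and was at least 6.19-fold lower, and Tgfbr3, a co-receptor, had 4.87 and 4.80 in P15, against 7.36 and 6.83 in IO-5, a difference of -2.26 ± 0.25 (adjusted p = 3.07e-05). These were the 2 genes called among 19 of the Nodal and TGF-β list, whose median was 0.07. Dusp4, a phosphatase that ERK signalling induces, had 5.76 and 5.67 in P15, against 8.87 and 9.44 in IO-5, with a difference of -3.44 ± 0.37 (adjusted p = 1.92e-05). On the ERK feedback list 4 of 19 fell and none rose, with 1 and 1 genes lower without P15 replicate 1 or 2, and 1 and 2 without IO-5 replicate 1 or 2. Igf2, an imprinted growth factor, had 5.84 and 6.05 in P15, against 9.05 and 9.55 in IO-5, a difference of -3.36 ± 0.47 (adjusted p = 1.88e-04), and Igf2r, the imprinted receptor that removes it, 5.95 and 5.76 in P15, against 7.99 and 8.42 in IO-5, a difference of -2.35 ± 0.29 (adjusted p = 6.72e-05). A further probe of Igf2r had -0.55 and was not called. Both calls held without any 1 array, and they were the only calls among 19 imprinted genes tested.

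Several enzymes, carriers and secreted proteins fell as well. The glutathione transferase Gsta1 had 4.34 and 4.27 in P15, against 8.39 and 9.54 in IO-5, at least 17.8-fold lower in P15. Its near-identical paralog Gsta2, which may share signal with it, had 4.30 and 4.37 in P15, against 8.18 and 8.36 in IO-5, at least 11.0-fold lower. On the glutathione list 7 of 28 fell and none rose, with 4 and 4 genes lower without P15 replicate 1 or 2, and 8 and 4 without IO-5 replicate 1 or 2. Slc40a1, the iron exporter ferroportin, had 6.10 and 5.82 in P15, against 10.14 and 9.38 in IO-5, with a difference of -3.80 ± 0.31 (adjusted p = 1.19e-06). Psap, the precursor of the lysosomal saposins, had 10.73 and 10.75 in P15, against 13.21 and 13.21 in IO-5, with a difference of -2.47 ± 0.17 (adjusted p = 1.40e-07) and replicates that were nearly equal. On the lysosome list 4 of 30 fell and none rose, with a median of -0.35 and 1 and 1 genes lower without P15 replicate 1 or 2, and 3 and 1 without IO-5 replicate 1 or 2. Lgals1, a secreted galectin, and B2m, the light chain of MHC class I, were lower with differences of -2.98 and -2.07.

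Some genes of protein synthesis and metabolism fell as well. Of 23 genes of the amino acid starvation response tested, 5 fell, none rose and 21 lay below 0, with a median of -0.66, and 4 and 4 genes lower without P15 replicate 1 or 2, and 6 and 5 without IO-5 replicate 1 or 2. Wars, a tRNA synthetase for tryptophan, had 6.90 and 6.32 in P15, against 9.15 and 9.05 in IO-5, a difference of -2.49 ± 0.23 (adjusted p = 3.74e-06), and 1 of its 3 further probes was also called lower. Chac1, an enzyme that breaks down glutathione and a target of the stress factor Atf4, had 7.91 and 7.94 in P15, against 10.41 and 10.05 in IO-5, with a difference of -2.30 ± 0.35 (adjusted p = 4.03e-04). Ddit3, a factor known as CHOP, had 4.82 and 4.94 in P15, against 6.90 and 6.96 in IO-5, with a difference of -2.05 ± 0.22 (adjusted p = 1.93e-05), and its other probe (-1.65) was not called. Atf4 itself had a difference of -0.19 and did not pass the test.

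The start windows of Chac1 (chr2:119350992-119351291, plus strand) and Aars (chr8:111033592-111033891, plus strand; GRCm38.p6) are shown because they hold TGATGNAA, the letters of the element that Atf4 and C/EBP factors bind, in capitals. Aars, a tRNA synthetase for alanine that was also called lower (-1.73), was chosen after its values were seen.
Chac1: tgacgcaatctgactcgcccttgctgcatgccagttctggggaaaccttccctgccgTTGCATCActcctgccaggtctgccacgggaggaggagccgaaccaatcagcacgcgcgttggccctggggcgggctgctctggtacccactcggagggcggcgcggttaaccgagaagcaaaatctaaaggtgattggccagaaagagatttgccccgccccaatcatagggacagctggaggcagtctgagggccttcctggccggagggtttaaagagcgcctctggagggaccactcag
Aars: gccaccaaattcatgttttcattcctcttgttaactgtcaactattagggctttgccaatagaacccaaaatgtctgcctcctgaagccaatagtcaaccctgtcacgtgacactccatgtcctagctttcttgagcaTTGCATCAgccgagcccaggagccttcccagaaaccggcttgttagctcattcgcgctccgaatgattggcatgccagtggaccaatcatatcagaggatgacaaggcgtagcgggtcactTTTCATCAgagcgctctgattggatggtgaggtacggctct
Searched on both strands, this motif was in the windows of 2 of the 4 genes of the list that were called lower and had a window, against 3.07% of the genes tested and 4.51% of all genes of the table. Among all genes called lower it was in 3.57%. It was also in the windows of 2 of 6 endoderm genes called lower and of 3 of 21 genes called lower over the endoderm, basement membrane and trophectoderm lists (Fabp3, Apoe and Srgn).

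Translation factors, ribosomal proteins and mitochondrial genes had medians below 0, a direction that the scaling of the arrays could turn. On the list of translation factors 6 of 35 fell and 2 rose, with 1 and 1 genes lower without P15 replicate 1 or 2, and 5 and 2 without IO-5 replicate 1 or 2. Eif5a, which eases the ribosome past stalled sequences, had 9.33 and 9.34 in P15, against 11.21 and 11.24 in IO-5, with a difference of -1.90 ± 0.31 (adjusted p = 5.73e-04), but its other probe had -0.09. In the opposite direction Eif2s2, a subunit of the initiator tRNA complex, had 12.84 and 12.74 in P15, against 11.17 and 11.28 in IO-5, and was higher by 1.57 ± 0.20 (adjusted p = 1.04e-04). Of 57 cytosolic ribosomal proteins tested, 4 fell (7.02%, a share near the 6.99% of all genes), 1 rose and 42 lay below 0, with a median of -0.52. Without IO-5 replicate 2 that median was -0.16, and without replicate 1 it was -0.77, and there were 2 and 0 genes lower without P15 replicate 1 or 2, and 13 and 1 without IO-5 replicate 1 or 2. Of 70 mitochondrial ribosomal proteins 11 fell and 1 rose (median -0.23), and of 68 genes of the respiratory chain and ATP synthase 9 fell and none rose (median -0.31). The mitochondrial ribosomal list had 2 and 1 genes lower without P15 replicate 1 or 2, and 15 and 1 without IO-5 replicate 1 or 2, and the respiratory list 4 and 0 genes lower without P15 replicate 1 or 2, and 16 and 1 without IO-5 replicate 1 or 2. Without IO-5 replicate 2 their medians were -0.23 and -0.05, against a median near 0 over all genes. With the arrays scaled to one median the medians of the mitochondrial ribosomal, respiratory and translation factor lists turned to 0.25, 0.10 and 0.11, and that of cytosolic ribosomal proteins was -0.06, against 0.10 over all genes.

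Glycolysis showed 7 falls and no rise among 20 genes tested, with 4 and 4 genes lower without P15 replicate 1 or 2, and 6 and 3 without IO-5 replicate 1 or 2. Slc2a1, the main glucose transporter of embryos, had 9.80 and 9.76 in P15, against 11.30 and 11.79 in IO-5, with a difference of -1.76 ± 0.23 (adjusted p = 1.10e-04). Aldoa, the aldolase of the pathway, had 10.11 and 9.93 in P15, against 11.60 and 11.86 in IO-5, a difference of -1.71 ± 0.24 (adjusted p = 2.06e-04). Both calls held without any 1 of the 4 arrays. The median of the list was -0.24, and with the arrays scaled to one median it was 0.10. Ldha, which makes lactate, and Hk2, a hexokinase, had -0.12 and 0.45 and did not pass the test.

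The rises held genes of several kinds. Stra8, a gene that retinoic acid induces at the start of meiosis, had 6.96 and 7.59 in P15, against 4.40 and 4.40 in IO-5. It was not detected in IO-5 and was at least 5.59-fold higher in P15, with a difference of 2.88 ± 0.20 (adjusted p = 2.09e-07). Aim2, a sensor of DNA in the cytosol, had 8.36 and 8.52 in P15, against 5.50 and 5.35 in IO-5, a difference of 3.02 ± 0.25 (adjusted p = 1.19e-06). Samd9l, an interferon-inducible gene, had 9.20 and 9.23 in P15, against 6.68 and 5.65 in IO-5, and Bnip5 had 10.31 and 10.32 in P15, against 7.59 and 7.43 in IO-5, with differences of 3.05 ± 0.39 (adjusted p = 8.89e-05) and 2.81 ± 0.27 (adjusted p = 7.64e-06). All 4 calls held without any 1 array. Lipo3, of a lipase family, rose by 3.23 and Tnfaip8, a regulator of cell death, by 2.82, and both calls also held.

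The calls of the other 6 of the 12 largest rises did not hold without IO-5 replicate 2. Trim23, a ubiquitin ligase, had 9.71 and 9.77 in P15, against 7.46 and 5.36 in IO-5, with the largest rise called, 3.33 ± 0.59 (adjusted p = 0.00101). Its IO-5 replicate 2 lay well below replicate 1, and the call was lost without P15 replicate 1 (adjusted p = 0.0109, log2 3.35), P15 replicate 2 (adjusted p = 0.0142, log2 3.30) or IO-5 replicate 2 (adjusted p = 0.0204, log2 2.27). Ppp1cb, a catalytic subunit of protein phosphatase 1, had 9.71 and 9.82 in P15, against 7.30 and 6.14 in IO-5, with a call that was lost without P15 replicate 1 (adjusted p = 0.0183, log2 3.10), P15 replicate 2 (adjusted p = 0.0246, log2 2.99) or IO-5 replicate 2 (adjusted p = 0.0427, log2 2.46). Ccnc, a cyclin of the Mediator complex, had 9.04 and 8.78 in P15, against 6.39 and 5.35 in IO-5, and its call was lost without IO-5 replicate 2 (adjusted p = 0.0119, log2 2.52). The same held for Gabarapl2, an autophagy protein, whose call was lost without P15 replicate 2 (adjusted p = 0.0135, log2 2.95) or IO-5 replicate 2 (adjusted p = 0.0152, log2 2.82). Dnajc6, a chaperone partner in clathrin uncoating, and Stk31, a germ cell kinase, lost their calls without P15 replicate 1 or 2 or IO-5 replicate 2, at adjusted p of 0.0392, 0.0387 and 0.0770 for Dnajc6 and 0.0297, 0.0285 and 0.0614 for Stk31. Further probes of Trim23, Ppp1cb and Dnajc6 were called higher too, and those of Ccnc and Gabarapl2 were not.

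Among oocyte and preimplantation genes 4 of 15 tested rose and none fell, against a background of 4.99% of genes higher. Obox6, an oocyte homeobox gene, had 6.32 and 6.14 in P15, against 4.45 and 4.29 in IO-5, was not detected in IO-5 and was at least 2.70-fold higher in P15 (1.86 ± 0.18, adjusted p = 8.86e-06). Pramel7, a gene of the morula and a target of LIF, had 8.12 and 7.80 in P15, against 6.11 and 5.34 in IO-5, with a difference of 2.23 ± 0.50 (adjusted p = 0.00487), and Ooep, a maternal protein of the egg cortex, had 11.76 and 11.79 in P15, against 10.24 and 10.72 in IO-5, a difference of 1.29 ± 0.23 (adjusted p = 9.86e-04). The call of Pramel7 was lost without P15 replicate 1 (adjusted p = 0.0452, log2 2.07), P15 replicate 2 (adjusted p = 0.0281, log2 2.40) or IO-5 replicate 2 (adjusted p = 0.0692, log2 1.85), that of Ooep was lost without P15 replicate 1 (adjusted p = 0.0109, log2 1.31) or P15 replicate 2 (adjusted p = 0.0148, log2 1.28), and the list had 1 and 1 genes higher without P15 replicate 1 or 2, and 4 and 2 without IO-5 replicate 1 or 2. On the germ cell list 2 of 23 rose, Stk31 and Stag3, a meiotic cohesin subunit, and the list had 0 and 0 genes higher without P15 replicate 1 or 2, and 4 and 0 without IO-5 replicate 1 or 2. Ddx4 and Dazl, later germ cell markers, had -0.36 and 0.68 and did not pass the test.

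In the stress list 1 gene of 24 rose and 1 fell. Dnajb1, a heat shock cochaperone, had 13.10 and 13.11 in P15, against 11.25 and 11.21 in IO-5, with a difference of 1.88 ± 0.23 (adjusted p = 7.87e-05) that held without any 1 array, and the fall was that of Ddit3. In the BMP list 2 of 20 genes rose and 3 fell, with a median of -0.15. The falls were those of the ligand Bmp7 (-1.04), the transcription factor Gata2 (-1.79) and the phosphatase Dusp9 (-1.40). Bmp7 and Dusp9 were not detected in P15. Without IO-5 replicate 2 the differences were -0.74 for Bmp7, which is under 2-fold, -1.60 for Gata2 and -1.25 for Dusp9. Smad1, the transducer of BMP signals, had 10.31 and 10.46 in P15, against 8.83 and 7.66 in IO-5, a difference of 2.14 ± 0.45 (adjusted p = 0.00303), a call that was lost without P15 replicate 1 (adjusted p = 0.0215, log2 2.21), P15 replicate 2 (adjusted p = 0.0327, log2 2.06) or IO-5 replicate 2 (adjusted p = 0.0609, log2 1.55). Of its further probes 1 was also called higher (1.90) and 1 was not (0.15). The receptor Bmpr1b, with a difference of 1.38, was not detected in IO-5, and its call was lost without P15 replicate 2 (adjusted p = 0.0100015, log2 1.30). Id1 and Id3, targets of the pathway, had -0.99 and -0.53 and did not pass the test.

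Calls among cell cycle genes were few and went both ways. Of 41 mitosis genes tested 3 rose and 3 fell (7.32% each), with a median of 0.36. Among replication genes 8.11% fell. These shares were near those of all genes, 4.99% higher and 6.99% lower. There were 1 and 0 genes higher without P15 replicate 1 or 2, and 4 and 0 without IO-5 replicate 1 or 2. For the falls the counts were 1 and 0 genes lower without P15 replicate 1 or 2, and 4 and 1 without IO-5 replicate 1 or 2. Kif11, the motor that separates spindle poles, had 9.01 and 9.19 in P15, against 7.94 and 7.18 in IO-5. Its difference was 1.54 ± 0.33 (adjusted p = 0.00369). Cdc20, an activator of the anaphase-promoting complex, had 10.65 and 10.50 in P15, against 11.58 and 11.59 in IO-5. The difference of Cdc20 was -1.01 ± 0.20 (adjusted p = 0.00211). Its further probes had -1.16, which was called lower, and -0.99 and -0.12, which were not called. The call of Kif11 was lost without P15 replicate 1 (adjusted p = 0.0217, log2 1.63), P15 replicate 2 (adjusted p = 0.0410, log2 1.45) or IO-5 replicate 2 (adjusted p = 0.0654, log2 1.17), and that of Cdc20 was lost without P15 replicate 1 (adjusted p = 0.0134, log2 -1.09), P15 replicate 2 (adjusted p = 0.0313, log2 -0.93) or IO-5 replicate 2 (adjusted p = 0.0185, log2 -1.01). E2f5, a repressive E2F, had 11.33 and 11.36 in P15, against 9.96 and 9.18 in IO-5, and was higher by 1.77 ± 0.26 (adjusted p = 3.24e-04), a call that held without any 1 array. Of 37 replication genes 3 fell and none rose, with a median of 0.01 and 0 and 0 genes lower without P15 replicate 1 or 2, and 5 and 0 without IO-5 replicate 1 or 2.

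Chromatin regulators gave few calls, and the share of polycomb and trithorax genes that fell (6.90%) was near the 6.99% of all genes. Of 29 polycomb and trithorax genes 2 fell, Phc2, a polycomb subunit, with -1.89 ± 0.29 (adjusted p = 3.69e-04), and Men1, a partner of MLL, with -1.71 ± 0.33 (adjusted p = 0.00192). The call of Men1 was lost without P15 replicate 1 (adjusted p = 0.0316, log2 -1.45) or IO-5 replicate 2 (adjusted p = 0.0278, log2 -1.55), and the list had 1 and 2 genes lower without P15 replicate 1 or 2, and 2 and 1 without IO-5 replicate 1 or 2. Of the subunits of the methyltransferase complex PRC2, Ezh2 had 7.59 and 7.70 in P15, against 6.64 and 7.02 in IO-5, a difference of 0.81 ± 0.47 (adjusted p = 0.247). Eed had 12.38 and 12.31 in P15, against 11.37 and 11.10 in IO-5, a difference of 1.11 ± 0.29 (adjusted p = 0.0124). Suz12 had 13.39 and 13.45 in P15, against 12.48 and 11.11 in IO-5, a difference of 1.62 ± 0.49 (adjusted p = 0.0236). These were all above 0 and none called, although 1 of the 2 further probes of Ezh2 was called higher and Suz12 was called higher without IO-5 replicate 1 (adjusted p = 0.00640).

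Some genes of the sex chromosomes differed as well. Of 15 X and Y chromosome dosage genes tested, 3 rose (20%) and 2 fell (13.3%), against 4.99% and 6.99% of all genes. Their median was 0.72, and 0.17 without IO-5 replicate 2. Klhl13, an X-linked gene, had 9.06 and 9.64 in P15, against 8.08 and 7.33 in IO-5. It was called higher, with a difference of 1.65 ± 0.40 (adjusted p = 0.00741) that was 1.27 without IO-5 replicate 2. Uty, on the Y chromosome, had 6.99 and 7.10 in P15, against 5.05 and 4.46 in IO-5, with a difference of 2.29 ± 0.30 (adjusted p = 1.12e-04), a call that held without any 1 array. Eif2s3y, also on the Y, had 11.84 and 12.29 in P15, against 10.21 and 9.18 in IO-5, a difference of 2.37 ± 0.60 (adjusted p = 0.00990), and its call was lost without P15 replicate 1 (adjusted p = 0.0386, log2 2.59), P15 replicate 2 (adjusted p = 0.0858, log2 2.15), IO-5 replicate 1 (adjusted p = 0.0110, log2 2.88) or IO-5 replicate 2 (adjusted p = 0.124, log2 1.86). Xist, the RNA of the inactive X, had 4.64 and 4.76 in P15, against 5.33 and 5.49 in IO-5, and was detected on both IO-5 arrays and on neither P15 array, with a difference of -0.71 ± 0.27 (adjusted p = 0.0658) that was not called. Rhox5, an X-linked homeobox gene, had 9.85 and 9.94 in P15, against 11.75 and 11.75 in IO-5, a difference of -1.85 ± 0.42 (adjusted p = 0.00515), a call lost without P15 replicate 1 (adjusted p = 0.0402, log2 -1.80), P15 replicate 2 (adjusted p = 0.0365, log2 -1.89), IO-5 replicate 1 (adjusted p = 0.0210, log2 -1.85) or IO-5 replicate 2 (adjusted p = 0.0399, log2 -1.85). The sex of the embryos in a pool is not labelled, and its part in these differences was not tested.

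The P2 and P4 arrays lie between the groups and show when the levels parted. Called by the same rule, P2 against IO-5 gave 124 genes lower and 8 higher, P4 against P2 19 lower and 13 higher, and P15 against P4 22 lower and 11 higher, while P15 against P2 gave 726 lower (7.25% of the genes) and 557 higher (5.56%). These comparisons share arrays with each other and with P15 against IO-5, so their values are set side by side only. The basement membrane list had a median of -2.01 for P2 minus IO-5 and -0.21 for P15 minus P2, with 7 and 3 genes called lower. Trophectoderm genes had -0.78 and -0.08, with 7 and 4 called lower. Primitive and visceral endoderm genes had -0.42 and 0.00, with 8 and 2 called lower. For all 3 lists the median of the later step lay near 0. Gata6, Pdgfra, Dab2, Sox17 and Cdx2 were already below detection on both P2 arrays, so this step could hardly show a further fall for them.

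In the quantile-normalized values the starvation response and the lists of protein synthesis had their falls in the later step. The starvation list had a median of 0.33 for P2 minus IO-5 and -1.02 for P15 minus P2, with 0 and 6 genes called lower. Cytosolic ribosomal proteins had 0.12 and -0.50, with 0 and 9 called lower. Respiratory genes had 0.14 and -0.49. The median of all genes was 0.02 in the first step and near 0 in the second. The IO-5 arrays differed in 2 of these lists. Set against IO-5 replicate 1 alone, the median of P2 was 0.43 for cytosolic ribosomal proteins and 0.44 for respiratory genes, and against replicate 2 alone it was -0.16 and -0.14, so the place of P2 relative to IO-5 turned with the array. For the starvation list it was 0.13 and 0.20. These steps were not refitted with the arrays scaled to one median.

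Single genes followed either course. Lama1 averaged 12.77 in IO-3, 12.57 in IO-5, 6.49 in P2, 5.91 in P4 and 5.08 in P15. Gata6 averaged 9.89, 9.17, 4.55, 4.83 and 4.41 over the same stages. Chac1 averaged 8.99, 10.23, 10.78, 8.77 and 7.92. Trim28 was likewise highest in P2, with 13.11, and had 11.07 in P15. Among the rises, Aim2 averaged 5.42 in IO-5, 5.40 in P2, 7.52 in P4 and 8.44 in P15, and Stra8 had 4.40, 4.78, 6.12 and 7.28. The rises came after P2 for both.

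**Figure D4:**
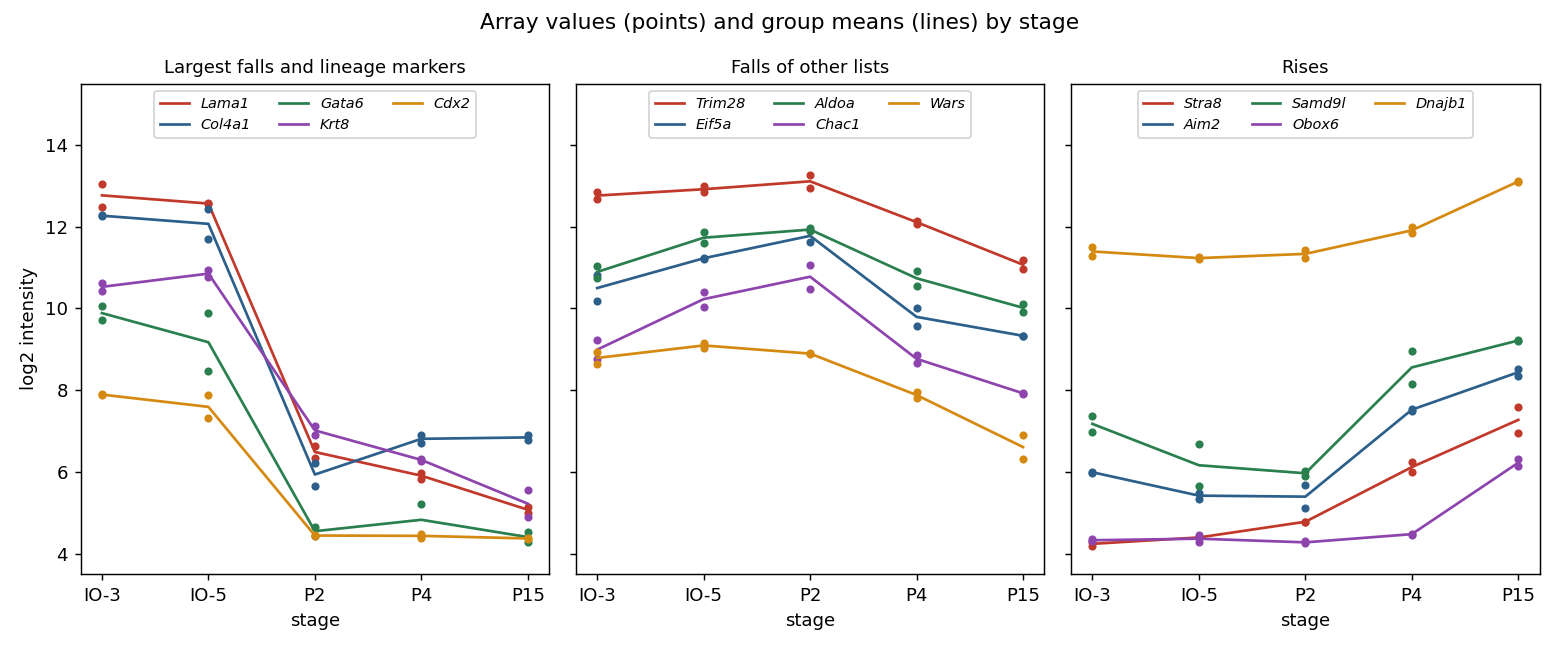
Log2 intensity of 15 genes on the arrays of IO-3, IO-5, P2, P4 and P15 (points, 2 arrays per stage) with the group means joined by lines. The left panel falls between IO-5 and P2, while the middle panel falls and the right panel rises after P2.

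**Figure D5:**
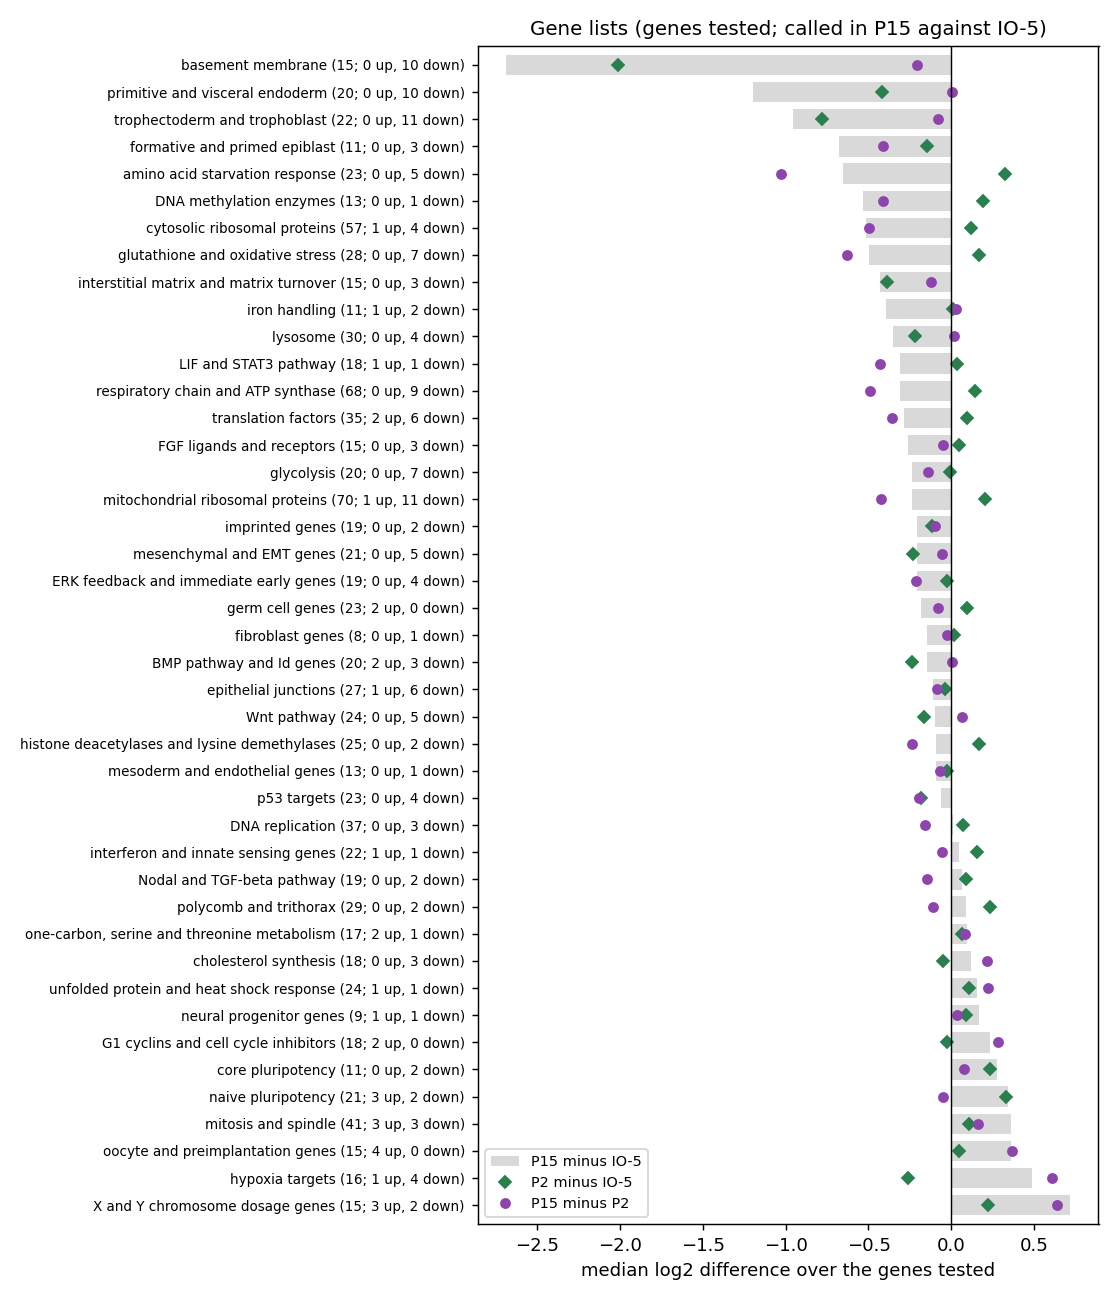
Median log2 difference over the tested genes of 43 gene lists, for P15 minus IO-5 (bars), P2 minus IO-5 (diamonds) and P15 minus P2 (circles), with the number tested and called beside each name. The basement membrane, endoderm and trophectoderm lists have their diamonds below 0 and their circles near it, and the starvation and ribosomal lists the reverse.

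The arrays of the first run allowed the same question in another strain. There, BALB/c ESCs were set against outgrowths of whole blastocysts on day 9 (BO-9), with 3 arrays of each in R2i, on another array type, and calls at an adjusted p of at most 0.05. These arrays share none with P15 against IO-5. Of 9071 genes with the same probe in both tests, 8.49% were lower and 5.34% higher in the BALB/c ESCs. Of the genes lower in P15, 679 had the same probe, and 181 of them (26.7%) were lower in BALB/c ESCs and 41 (6.04%) higher. Of the genes higher in P15, 492 had it, and 45 (9.15%) were higher and 38 (7.72%) lower. The share lower was well above its background for the falls, and the share higher was closer to its background for the rises.

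The basement membrane, trophectoderm and endoderm lists had falls and no rises in BALB/c too. The basement membrane list had a median of -1.68 there, with 9 of 15 genes lower and none higher, and the trophectoderm list -2.14, with 16 of 20 lower and none higher. For primitive and visceral endoderm it was -0.53, with 8 of 18 lower. Lama1 had a difference of -3.50 ± 0.41 in BALB/c, Krt8 -3.15 ± 0.37 and Cdx2 -3.58 ± 0.24, all called. Other members went their own way. The starvation list had a median of -0.13 and cytosolic ribosomal proteins 0.25, against 0.04 over all genes. Lin28a and Eif5a, lower in P15, were called higher in BALB/c ESCs (2.11 and 1.38). Zfp42, Dnajb1 and Eif2s3y, higher in P15, were called lower there (-1.02, -1.50 and -4.05). Strain, ESC passage, outgrowth type, day and array type all differ between these comparisons and cannot be told apart.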

How the data were processed

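Total RNA was amplified in 2 rounds and hybridised to Illumina MouseRef-8 bead arrays (hybrid embryos) or WG-6 arrays (BALB/c). The authors deposited raw intensities, the bead averages exported from GenomeStudio, with no background correction. A detection p-value per probe and array was deposited beside them. The deposited log2 table of the hybrid arrays, made by the authors with neqc of limma, was used as an alternative, and the recomputed values correlated with it at an r of at least 0.99996 on every array. The normalized BALB/c table was not used here.

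The raw intensities were processed with neqc (limma 3.58.1, R 4.3.3) using detection p-values and an offset of 16. Of 25697 probes, 13923 were detected on at least 2 of the 22 hybrid arrays and kept, and the brightest probe stood for each of 10013 named genes. Of the probes, 23978 carried 1 symbol and 1719 none, and 23962 were met in RefSeq by Entrez ID. A linear model over 11 groups of 2 was fitted with lmFit and eBayes, with Benjamini-Hochberg adjustment over all genes. The BALB/c fit used 17 arrays and left out BO-3 replicate 1, since the study describes 2 replicates for that group.

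Named genes were the 12 largest rises and 12 largest falls called, with arrays that did not overlap, with the brighter group detected on both arrays and without clone or predicted symbols, then up to 4 called members per direction of each of 43 lists, and 21 fixed genes. Of these Ccnb1, Dnmt3a and H19 were not tested, and other genes are named as list members that were not called or as markers. The members and lists were chosen with earlier results of these data known. Genes of near-identical families may share probe signal. The p-values rest on a spread per gene that was pooled over all groups of the 22 hybrid arrays and taken as equal in each. They do not measure the spread of P15 and IO-5 alone. The replicates did not vary equally, with 4 genes over 1 log2 apart in P15, 910 in IO-5 and 2551 in the ICM. Nothing states that the P15 replicates were separate lines, so the p-values are no measure of the spread between lines. On simulated data 8, 24, 34 and 48 of 50 genes changed by 1, 1.5, 2 and 3 log2 were called, and 1 of 9813 unchanged genes. The simulated noise had the same spread on every array of a gene, unlike the data, so these counts may not carry over. The number of arrays limits the precision. Figures were drawn with Python 3.11.15 and matplotlib 3.10.9, and tables joined with pandas 2.3.3.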

Additional observations from a re-analysis of the deposited data

Results flagged for a closer look

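Probes without a gene symbol took no part in the gene comparisons. Of 828 such probes that were kept, 93 were called between P15 and IO-5, with 36 higher and 57 lower in P15. Their share was 11.2%, against 11.4% of the probes with a symbol.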

How the results depend on the processing

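The count of 1200 calls (500 higher, 700 lower in P15) was 776 without background correction (413 lower), 2269 with cyclic loess (1197 higher, 1072 lower), 263 with arrays scaled to one median (155 higher, 108 lower), 416 in a fit of the 4 arrays alone (157 higher, 259 lower), 1899 with array weights (879 higher) and 1871 at an adjusted p of at most 0.05 (874 higher). The cause was not tested. Of 150 named genes that were called, 104 lost the call with one median, 79 in the fit of the 4 arrays, 37 without background correction, 26 with an offset of 50, 28 to 84 with 1 array left out and at most 32 in any other setting, and none changed sign. The medians of 34 of 43 lists moved by more than the spread between replicates with one median, where 7 changed sign, and those of 27 did without background correction, where none did. The share of calls that were higher was 41.7% in the quantile-normalized values, 52.8% with cyclic loess and 58.9% with scaling to one median. Leaving out 1 array at a time gave 318 to 1262 calls, 103 to 580 higher and 215 to 682 lower, and fewer arrays give such a fit less power. With the other alternatives (offset of 50, the deposited table, either filter on dim probes, 24 arrays, no ICM, an intensity trend with a robust prior, the mean of a gene's probes) the count lay within 1.5 times of 1200. In no setting did more than 1 called gene change sign. A sign could not change where only the fit or the limit on p was altered, nor where 1 array was left out. Deviations of the same-numbered P15 and IO-5 arrays correlated at an r of 0.03. With 2 arrays per group and P15 arrays that hardly differ, this cannot tell whether same-numbered samples share a batch or origin. With the replicate block the count was 1167 over 22 arrays and 1068 over the 4 compared. A slide block was not run, since the files used here name no slides.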
